A study of Mus musculus with 61 samples.

Results

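Thyrotropin-releasing hormone (Trh), growth hormone-releasing hormone (Ghrh), gonadotropin-releasing hormone (Gnrh1) and somatostatin (Sst) are peptides by which the hypothalamus instructs the pituitary gland, and neuropeptide Y (Npy) and the Cart prepropeptide (Cartpt), together with the receptors Npy1r, Npy5r, Mc4r and Lepr, belong to the circuits that regulate feeding. The set described here holds these 10 genes, and its members are all probe sets that the platform annotation assigns to exactly one of them. Of the 10 genes, 8 were measured, by 13 of the 45037 probe sets, out of 18193 genes with a probe set naming 1 gene. Gnrh1 and Mc4r were not analysed here.

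RNA was measured in the hypothalamus, the pituitary gland, the hippocampus, the periaqueductal gray (pag) and the bed nucleus of the stria terminalis (bnst, a forebrain relay between amygdala and hypothalamus) of 6 inbred mouse strains, on 61 one-colour Affymetrix mouse genome 430 2.0 arrays. The strains were C57BL/6J, 129S6/SvEvTac, FVB/NJ, A/J, DBA/2J and C3H/HeJ, and the animals were males of 8 weeks for which the labels name no engineered allele and no treatment. Each of the 30 groups of strain and region had 2 arrays, apart from C3H/HeJ bnst with 3, so that the bnst has 13 arrays and every other region 12. The comparisons ask which of the genes depend on the region, which on the strain, and which on the strain in a way that changes between regions. Animals were pooled by region, with 1 mouse per hippocampus array, 1 or 2 per hypothalamus and pag array, 2 or 3 per bnst array and 5 per pituitary array, so that pooling and region cannot be told apart. The 129S6/SvEvTac mice came from another supplier than the other strains, so that supplier and strain cannot be told apart for them.

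Releasing peptides are made by small groups of hypothalamic neurons and are secreted at the median eminence into the portal blood, which carries them to receptors on the hormone cells of the anterior pituitary. Trh drives thyrotropin and Ghrh drives growth hormone, while somatostatin opposes growth hormone and is also a transmitter of inhibitory interneurons through much of the forebrain. In the arcuate nucleus, Npy neurons promote feeding and Cartpt is expressed with Pomc in neurons that restrain it; leptin acts on both through Lepr, and Npy acts on hypothalamic targets through Npy1r and Npy5r.

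The sequence just before the start of each gene is the stretch in which a TATA box or a cyclic AMP response element would lie, the latter bound by the factor CREB. RefSeq sequence of the GRCm38.p6 assembly was searched for 8 of the 10 genes, in 10 entries. Each gave a window of 250 bases before the start. Of these windows, 4 are shown because they hold a match in 4 of the peptide genes described next. They are Trh at chr6:92244651-92244900, Ghrh (its second entry) at chr2:157337427-157337676, Sst at chr16:23890845-23891094 and Cartpt at chr13:99900684-99900933, all on the minus strand and written 5′ to 3′ along the gene. Capitals mark TGACNTCA, which includes the full element TGACGTCA, and TATAA, both searched on either strand.
Trh: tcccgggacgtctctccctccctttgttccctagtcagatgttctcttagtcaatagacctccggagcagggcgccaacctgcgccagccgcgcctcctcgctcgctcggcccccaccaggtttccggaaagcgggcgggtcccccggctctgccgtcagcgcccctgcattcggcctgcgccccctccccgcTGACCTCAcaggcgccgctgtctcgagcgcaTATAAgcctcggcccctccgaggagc
Ghrh: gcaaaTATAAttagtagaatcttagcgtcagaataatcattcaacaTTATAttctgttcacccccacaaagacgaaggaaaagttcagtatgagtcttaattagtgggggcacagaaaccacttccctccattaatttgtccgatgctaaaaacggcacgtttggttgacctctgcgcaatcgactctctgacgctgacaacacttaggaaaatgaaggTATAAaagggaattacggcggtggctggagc
Sst: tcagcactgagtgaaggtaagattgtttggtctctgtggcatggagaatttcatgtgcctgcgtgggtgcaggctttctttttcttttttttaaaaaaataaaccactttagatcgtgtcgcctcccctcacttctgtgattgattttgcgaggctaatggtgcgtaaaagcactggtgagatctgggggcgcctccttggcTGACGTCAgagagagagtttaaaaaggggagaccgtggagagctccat
Cartpt: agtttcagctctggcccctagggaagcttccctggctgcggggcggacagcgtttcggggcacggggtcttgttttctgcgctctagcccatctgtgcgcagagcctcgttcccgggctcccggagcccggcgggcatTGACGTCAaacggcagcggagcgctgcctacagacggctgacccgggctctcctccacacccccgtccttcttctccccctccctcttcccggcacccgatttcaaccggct
TGACGTCA began 48 bases before the start of Sst and 112 bases before that of Cartpt, and 1.55% of all 32851 such windows hold it. The Trh window held the one-letter variant TGACCTCA 57 bases and TATAA 26 bases before the start. In the Ghrh window shown, TATAA matched 31, 204 and 245 bases before the start, the match at 204 on the other strand. The first Ghrh entry, not shown, held TATAA 151 bases before its start. TGACNTCA occurs in 7.49% of the windows and TATAA in 22.8%. The windows of Npy, Npy1r, Npy5r and Lepr held none of these letters, which says nothing about the factors that act there.

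The values are signals in arbitrary units, which the authors scaled so that the array means lie between 180 and 201. Replicate arrays of a group correlated with r between 0.974 and 0.998. Signals under 12.78, the 20th percentile of all values, were raised to it before log2 was taken, so that the size of a difference that involves values at this floor depends on it. Probe sets differ in brightness for the same amount of RNA, so signals are compared only within a probe set. The hypothalamus, hippocampus, pag and pituitary arrays had the highest sums of their own marker lists, although Rax, a hypothalamic marker, was at the floor on 11 of 12 hypothalamus arrays, where Avp read 4671 or more and Pmch 3038 or more. No list of bnst markers was used, so the bnst label was not checked in this way. The bnst arrays carried thalamic neuron markers, 6 of 6 called higher there, with sums of 4022 to 8944 against 615 to 2233 in the other regions, and choroid plexus markers, also 6 of 6, with sums of 299 to 10117. The summed signal of 6 hypothalamic markers was 11052 to 18508 on the hypothalamus arrays, 4723 to 10870 on the bnst arrays and 1142 to 2396 on the pituitary arrays, against 182 to 445 in hippocampus and pag. Several arrays stood apart by their markers. C3H/HeJ bnst replicate 3 had the lowest choroid plexus markers of the bnst, summing to 299 against 6236 and 8199 on the other arrays of its group, and C3H/HeJ pituitary replicate 2 had oligodendrocyte markers that summed to 4286 against 88 to 281 on the other pituitary arrays. Pituitary hormone markers summed to 5883 on FVB/NJ pag replicate 1 and to 2784 on C57BL/6J hippocampus replicate 2, against medians of 297 and 150 in those regions, the latter array also had the highest choroid plexus sum of the hippocampus (6558, median 1670), and hippocampal neuron markers summed to 1348 on FVB/NJ hypothalamus replicate 2 (median 390). Of the calls between a region and the other 4 regions, only those of Npy in the bnst and Trh in the pag changed when any single array was left out. In such tissue samples, fewer cells of a type and less RNA per cell cannot be told apart.

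The hypothalamus held the highest level of Trh, Ghrh and Npy. It was not separated from the hippocampus for Sst, nor from the pag for Cartpt. Against the mean of the other 4 regions, 7 of the 8 genes were higher in the hypothalamus and 0 were lower, all but Lepr, whereas 17.0% of the 44065 probe sets tested were called higher and 17.0% lower. The median log2 difference of the 8 genes was 1.84, against -0.03 for all probe sets. Tests are limma contrasts with Benjamini-Hochberg adjustment over all probe sets tested, called at an adjusted p under 0.05, and a gene with several probe sets is represented by the brightest on average. For the order of regions, the 10 pairs of regions were tested too, in which 23.1% (bnst and hypothalamus), 23.1% (bnst and pag), 26.2% (hypothalamus and pag), 33.7% (bnst and hippocampus), 36.8% (hippocampus and hypothalamus) and 42.2% (hippocampus and pag) of all probe sets were called, and 62.0%, 62.7%, 60.3% and 60.1% between the pituitary gland and the bnst, hippocampus, hypothalamus and pag.

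**Figure D1:**
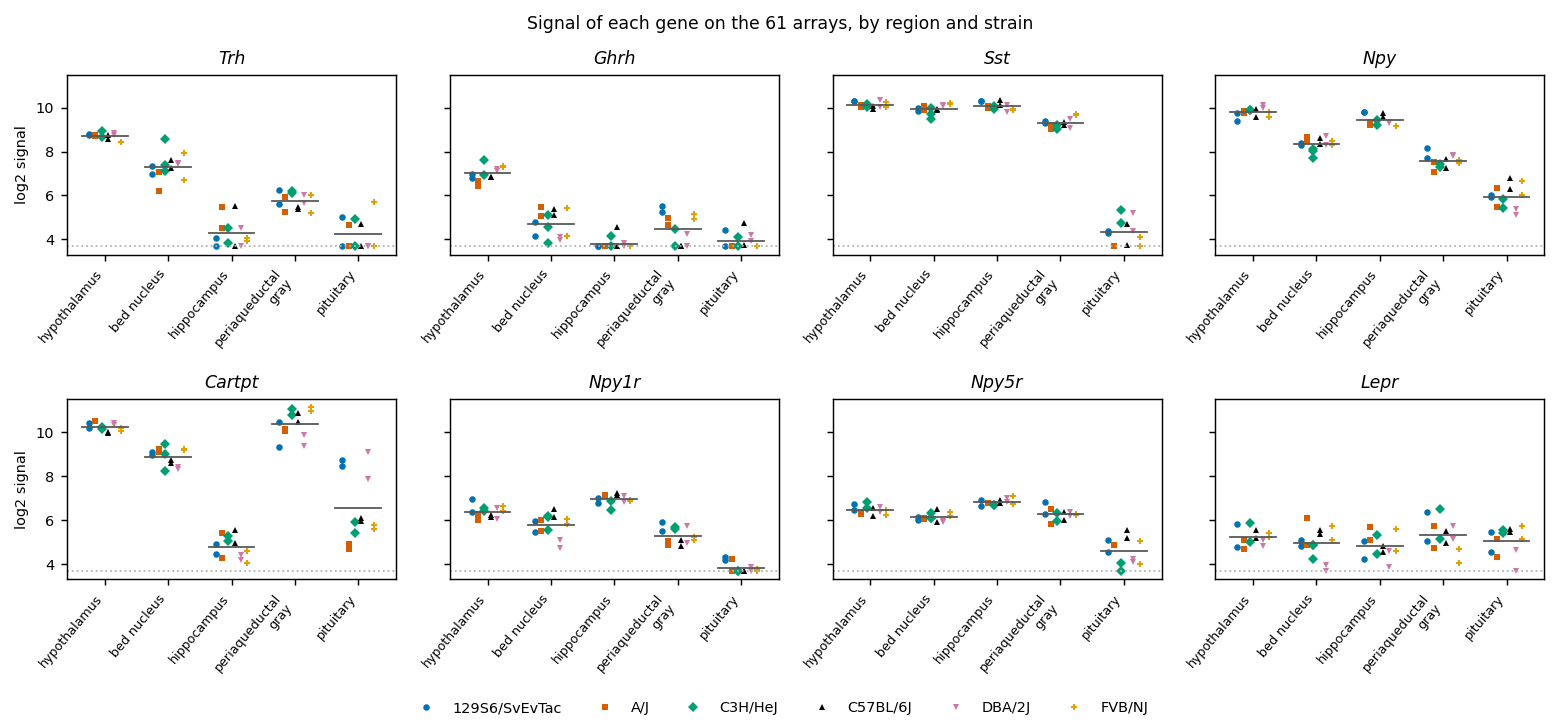
Log2 signal (arbitrary units, floored at 12.78, the dotted line) of the 8 genes on all 61 arrays, by region; each point is an array, its colour and shape give the strain, and horizontal bars are means over the arrays of a region. By the brightest probe set of each gene, Ghrh in the hypothalamus and Sst, Npy, Npy1r and Npy5r in the pituitary gland do not overlap with the other regions, and Lepr overlaps everywhere. The second probe set of Npy1r, not drawn here, overlaps in the pituitary gland. How many of all probe sets part in this way was not counted.

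Trh, the tripeptide precursor that drives thyrotropin, read 346.15 to 488.74 on the hypothalamus arrays with a median of 429.56. In the bnst it read 74.43, 162.79 and 377.81 (lowest, median and highest), and in the pag 37.11, 55.29 and 75.87. In the hippocampus its median was 16.75 and in the pituitary gland 8.275, with 3 and 7 of 12 arrays at the floor. The levels thus fell from hypothalamus through bnst and pag to the other regions, and 10 of the 12 hypothalamus arrays lay above every array elsewhere; the array that reached into their range was C3H/HeJ bnst replicate 3. Trh was 9.94-fold higher in the hypothalamus than in the mean of the other regions, a log2 difference of 3.31 (SE 0.18, adjusted p = 4.75e-17). Each step of the order passed the test except the last, hippocampus minus pituitary gland, at 0.06 (adjusted p = 0.845).

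Ghrh, the growth hormone-releasing peptide of the arcuate nucleus, was the gene whose hypothalamic arrays stood clear of all others. It read 86.93, 122.915 and 197.98 there, and no more than 45.27 on any other array. The medians were 27.97 in the bnst, 23.72 in the pag, 11.745 in the pituitary gland and 4.83 in the hippocampus, where 9 of 12 arrays were at the floor. The log2 difference of hypothalamus against the other regions was 2.77 (SE 0.12, 6.81-fold, adjusted p = 5.62e-20). Below the hypothalamus, bnst and pag differed by 0.23 (adjusted p = 0.301) and hippocampus and pituitary gland by -0.14 (adjusted p = 0.461), while the pag lay above the pituitary gland by 0.55 (adjusted p = 0.00194). Since Ghrh was near the floor outside the hypothalamus, these sizes depend on the floor.

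Sst, which inhibits growth hormone release, was spread evenly over the forebrain. Its signal was 989.42, 1092.04 and 1294.7 in the hypothalamus, 885.44, 1071 and 1318.27 in the hippocampus, and 704.08, 1004.64 and 1188.34 in the bnst. The pag was lower, at 524.41, 613.76 and 827.27, and the pituitary gland did not rise above 41. The forebrain regions overlapped almost completely: hippocampus and hypothalamus differed by -0.06 (adjusted p = 0.728) and bnst and hippocampus by -0.11 (adjusted p = 0.373), while bnst and pag differed by 0.67 (adjusted p = 1.91e-07). The log2 difference of the hypothalamus, 1.72 against all other regions (SE 0.07), was therefore mostly set by the pituitary gland, where Sst was 46.4-fold below the mean of the other regions (log2 difference -5.54); against the other 3 brain regions alone it was 0.35 (adjusted p = 0.000156).

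Npy, the orexigenic peptide, read 680.41, 904.655 and 1110.99 in the hypothalamus. The hippocampus followed at 572.92, 654.105 and 896.75, the bnst at 207.7, 326.96 and 412.8, the pag at 136.23, 188.935 and 285.66, and the pituitary gland at 34.02, 62.46 and 112.59. Hypothalamus and hippocampus overlapped, but 7 of 12 hypothalamus arrays lay above every array elsewhere, and the pituitary arrays lay below every brain array. Npy was higher in the hypothalamus by 1.97 on the log2 scale (SE 0.07, adjusted p = 5.3e-22). All 4 steps of this order passed the test, from -0.37 for hippocampus minus hypothalamus (adjusted p = 0.000993) to 1.63 for pag minus pituitary gland.

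Cartpt, whose product restrains feeding in the hypothalamus, had its highest median in the pag. The signal was 641.11, 1406.64 and 2247.95 in the pag and 997.91, 1210.1 and 1454.23 in the hypothalamus, and the 5 highest arrays of the series were pag arrays. It fell to 304.6, 514.47 and 705.74 in the bnst and to 25.51, 62.09 and 545.14 in the pituitary gland. The hippocampus was lowest at 16.71, 27.1 and 46.42. Hypothalamus and pag were not separated (log2 difference -0.13, adjusted p = 0.552), whereas the bnst lay below the hypothalamus by 1.35 (log2 difference -1.35) and above the pituitary gland by 2.35, and the hippocampus lay below the pituitary gland (log2 difference -1.79, adjusted p = 3.42e-14). Against the mean of the other regions, Cartpt was higher by 2.76 in the pag (adjusted p = 1.35e-21) and by 2.61 in the hypothalamus (adjusted p = 1.45e-20), and 19.1-fold lower in the hippocampus (log2 difference -4.26).

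The Npy receptors were highest in the hippocampus, not in the hypothalamus. Npy1r read 89.6, 125.14 and 148.62 in the hippocampus, 63.57, 84.18 and 124.35 in the hypothalamus, 27.01, 63.07 and 92.44 in the bnst and 28.05, 36.275 and 60.78 in the pag. No pituitary array read above 20.17, and 7 of 12 were at the floor. Hippocampus exceeded hypothalamus by 0.57 (adjusted p = 2.84e-05), and every later step of the order passed the test. Npy5r followed the same order at its ends, with 99.95, 110.525 and 136.83 in the hippocampus, 72.56, 88.38 and 112.98 in the hypothalamus and 8.84, 25.99 and 46.67 in the pituitary gland. Its median was 77.81 in the pag and 68.21 in the bnst, and neither hypothalamus and pag (0.20, adjusted p = 0.164) nor bnst and pag (-0.15, adjusted p = 0.351) were separated. Against the mean of the other regions, the hippocampus was higher by 1.63 for Npy1r (adjusted p = 1.01e-18) and by 0.96 for Npy5r (adjusted p = 2.15e-12).

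Lepr, the leptin receptor, showed no regional pattern that passed the test. Its medians ran from 26.585 in the hippocampus to 38.8 in the pituitary gland, close to the floor, and every region overlapped every other. The log2 difference of the hypothalamus was 0.18 (95% interval -0.16 to 0.51, adjusted p = 0.463). The F test over regions gave an adjusted p of 0.22 for Lepr and called the other 7 genes, against 71.7% of all probe sets.

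**Figure D2:**
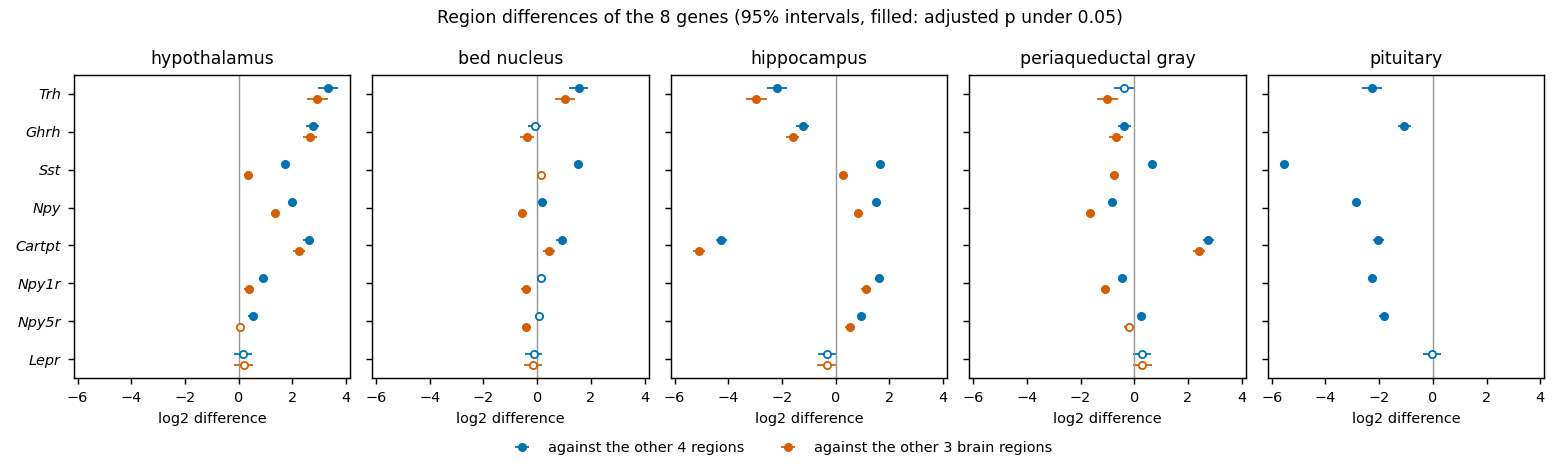
Log2 difference of each region for the 8 genes, against the mean of the other 4 regions (blue) and, for brain regions, against the mean of the other 3 brain regions (orange), with 95% intervals from limma; filled points passed at an adjusted p under 0.05. Trh, Ghrh and Npy are largest in the hypothalamus, 7 genes are below 0 in the pituitary gland, and Sst in the pag and Npy in the bnst change sign with the reference.

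In the pituitary gland, the target of the releasing peptides, 0 of the 8 genes were higher and 7 were lower than in the other regions, whereas 40.6% of all probe sets were called higher and 25.4% lower there. By its brightest probe set, no gene had a positive difference at an unadjusted p under 0.05 either, whereas the second probe set of Npy1r was higher (0.49, adjusted p = 0.00255). After Sst, the largest differences were those of Npy (-2.85, 7.22-fold lower), Trh (-2.28) and Npy1r (-2.26), followed by Cartpt (-2.02), Npy5r (-1.83) and Ghrh (-1.07). Trh, Ghrh, Sst and Npy1r were at or near the floor in the gland, and Trh and Ghrh also on some hippocampus arrays of the reference, so that the sizes depend on the floor. Lepr was at -0.02 (95% interval -0.36 to 0.31, adjusted p = 0.92).

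The choice of reference mattered in the bnst and the pag. Against the other 4 regions, 4 genes were higher in the bnst (16.0% of all probe sets) and 0 lower (22.6%): Trh by 1.54 (adjusted p = 6.05e-09), Sst by 1.5, Cartpt by 0.91 (adjusted p = 4.86e-09) and Npy by 0.19 (adjusted p = 0.0292). Against the other 3 brain regions, a comparison chosen after seeing the data, only Trh (1.04) and Cartpt (0.43, adjusted p = 0.00327) remained higher, where 8.38% of all probe sets were higher, and Npy (-0.56), Npy1r (-0.43), Npy5r (-0.40) and Ghrh (-0.38) were lower, as were 10.4% of all. On untransformed signals the Cartpt difference of the bnst against the other 4 regions turned sign (-224 signal units), as did that of Npy (-127). The Npy call in the bnst was lost when any of 6 single bnst arrays was left out, among them C3H/HeJ replicate 3 (0.18, adjusted p = 0.0504), and also 129S6/SvEvTac replicate 2, A/J replicate 1, C57BL/6J replicate 2, DBA/2J replicate 1 and FVB/NJ replicate 1. The hypothalamic marker sum of the bnst arrays overlapped neither that of the hypothalamus arrays nor that of the hippocampus and pag arrays but lay between them. The thalamic neuron markers (median log2 difference 2.99) and the choroid plexus markers (1.49) were also higher in the bnst, and the part of these lists in the levels of Trh, Sst, Cartpt and Npy there was not tested.

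In the pag, 3 genes were higher than in the other 4 regions, Cartpt (2.76), Sst (0.67) and Npy5r (0.27), where 22.2% of all probe sets were higher, and Npy (-0.82), Npy1r (-0.44) and Ghrh (-0.38) were lower, where 21.2% were. Against the other 3 brain regions, Cartpt alone was higher, by 2.41 (20.5% of all probe sets), and 5 genes were lower (14.3%), with Npy at -1.63, Npy1r at -1.07, Trh at -1.0, Sst at -0.76 and Ghrh at -0.69. Sst thus changed sign with the reference. The hippocampus had 4 higher genes (Sst at 1.65, Npy1r, Npy at 1.51 and Npy5r; 19.1% of all probe sets) and 3 lower (Cartpt, Trh at -2.20 and Ghrh at -1.24; 29.3%), and against the other brain regions the same 4 were higher (17.4%) and the same 3 lower (23.3%), Cartpt by 33.8-fold. For the hypothalamus itself, 6 genes stayed higher against the other brain regions (16.5% of all probe sets): Trh at 2.93, Ghrh at 2.67, Cartpt at 2.24, Npy at 1.34, Npy1r at 0.37 (adjusted p = 0.000786) and Sst. Npy5r, at 0.07, was no longer called (adjusted p = 0.654).

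Genes with several probe sets allowed a second reading. The second probe set of Npy5r gave the same signs, with 0.73 in the hypothalamus (adjusted p = 1.24e-11), 1.17 in the hippocampus and -2.37 in the pituitary gland. The second probe set of Npy1r went against the first: its medians lay between 22.34 in the bnst and 30.145 in the pituitary gland, and the pituitary difference was 0.49 (adjusted p = 0.00255) rather than -2.26. Of the other Lepr probe sets, one was at the floor on 55 of 61 arrays and one gave a hypothalamic difference of 0.42 (adjusted p = 0.0272), with 20.08, 39.935 and 54.62 in the hypothalamus. The regional pattern of Npy1r and the absence of a call for Lepr therefore rest on the probe set chosen. So does the absence of a call for Npy5r in the bnst and between hypothalamus and pag.

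**Figure D3:**
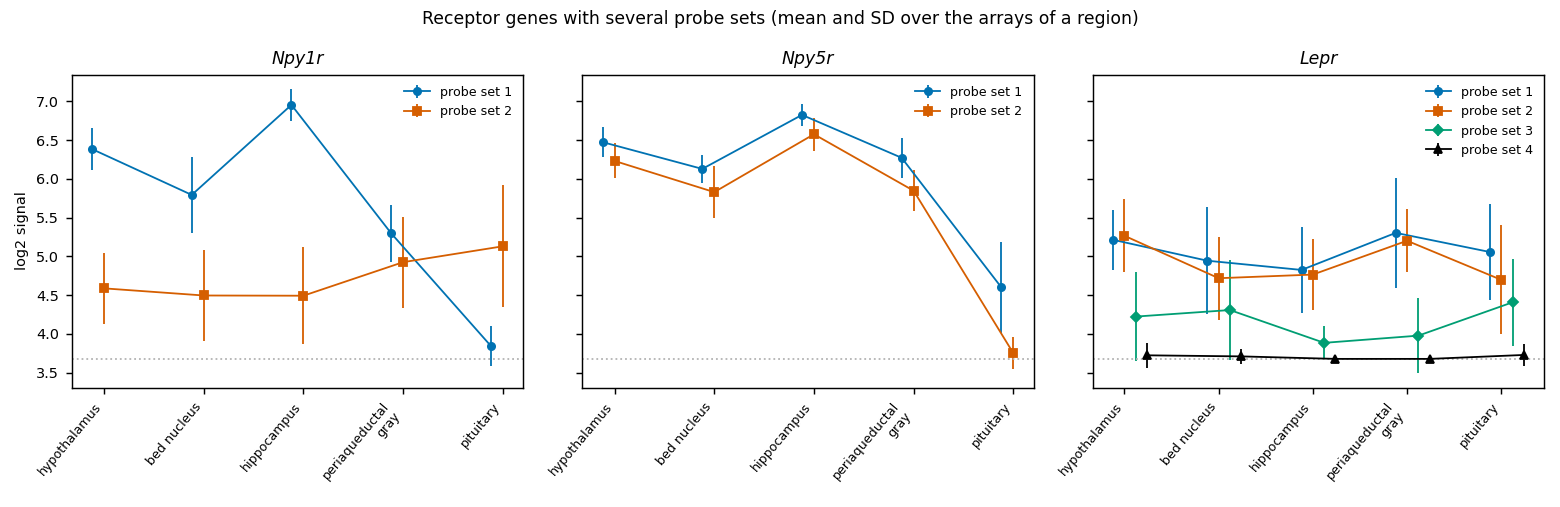
Log2 signal (floored at 12.78, the dotted line) of every probe set of Npy1r, Npy5r and Lepr, as the mean and SD over the arrays of each region. The 2 probe sets of Npy5r run in parallel, those of Npy1r part in the pituitary gland, and 1 of the 4 probe sets of Lepr lies at the floor.

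Fewer of these genes differed by strain than by region. Averaged over the regions, the F test over strains called 1 of the 8 genes, Cartpt (adjusted p = 0.0252), against 39.2% of all probe sets, and Npy fell just short of the threshold. Cartpt was higher in 129S6/SvEvTac by 0.41 (adjusted p = 0.0105) and lower in A/J by 0.34 (log2 difference -0.34, adjusted p = 0.0439), Sst was lower in A/J (-0.22, adjusted p = 0.0377), Npy was lower in C3H/HeJ (-0.23, adjusted p = 0.0453), and Lepr was lower in DBA/2J (-0.66, adjusted p = 0.00921). This makes 1 gene in 129S6/SvEvTac (18.7% of all probe sets), 2 in A/J (15.1%), 1 in C3H/HeJ (10.5%) and 1 in DBA/2J (13.5%). By limma 0 genes were called in C57BL/6J (22.0%) and 0 in FVB/NJ (11.0%), with 1 and 0 genes at an unadjusted p under 0.05. The Cartpt call in 129S6/SvEvTac was lost without pag replicate 1 of that strain (0.29, adjusted p = 0.0725), and its sign turned on untransformed signals (-25.2 signal units, adjusted p = 0.773), and the calls for Cartpt in A/J and Npy in C3H/HeJ were lost when any of 31 and 37 of the 61 arrays was left out. The Lepr call in DBA/2J was lost with the floor at the 40th percentile of all values (-0.19, adjusted p = 0.364), with the mean over the Lepr probe sets and on untransformed signals. The Sst call in A/J was lost without any of 8 arrays of that strain, both replicates of hippocampus, hypothalamus and pituitary gland and replicate 2 of bnst and pag.

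In the hypothalamus, no strain difference was called for any of the 8 genes on the log2 scale with the floor used for the main results. The F test over strains by limma called 0 (10.9% of all probe sets), the lowest adjusted p being 0.614, and 0 genes were at an unadjusted p under 0.05. Over the 15 strain pairs there, limma called 0 of 120 tests of a gene in a pair (lowest adjusted p = 0.266). Before adjustment, Npy passed the threshold of 0.05 in 129S6/SvEvTac minus DBA/2J (log2 difference -0.45) and Ghrh in A/J minus FVB/NJ (-0.77). The share of all probe sets called in these pairs is not given here. Ghrh read 101.14 and 86.93 in A/J, 155.7 and 163.69 in FVB/NJ, and 197.98 and 120.74 in C3H/HeJ, where the replicates lay far apart. Trh read 346.15 and 348.13 in FVB/NJ and between 382.04 and 488.74 in all other strains. This does not show that the strains are alike: with the floor at the 40th percentile of all values limma called Ghrh (adjusted p = 0.000105), and on untransformed signals it called Ghrh (adjusted p = 0.00048) and Npy (adjusted p = 0.00139). The hippocampus also gave 0 calls (10.6% of all probe sets, with 1 gene at an unadjusted p under 0.05), and on untransformed signals limma called Npy (adjusted p = 2.43e-05) and Sst (adjusted p = 0.00735) there.

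Most called strain differences of these genes lay in the pituitary gland, the pag and the bnst, and the interaction of strain and region was called for 5 of the 8 genes, against 11.3% of all probe sets. Cartpt had the smallest adjusted p (5.2e-08), followed by Sst (0.0108), Npy (0.0121), Ghrh (0.0379) and Npy1r (0.0445). Npy5r (0.103), Lepr (0.282) and Trh (0.85) were not called. The Sst call was lost without C3H/HeJ pituitary replicate 1 (adjusted p = 0.053) and the Npy call without DBA/2J pituitary replicate 1 (adjusted p = 0.0501), and those of Ghrh and Npy1r were lost when any of 20 and 39 single arrays was left out. The Cartpt call was kept whichever single array was left out.

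In the pituitary gland, 4 of the 8 genes differed between strains (31.9% of all probe sets), and Cartpt did so by far the most. Its signal was 433.34 and 353.27 in 129S6/SvEvTac and 545.14 and 238.28 in DBA/2J. It was 63.29 and 68.16 in C57BL/6J, 60.89 and 42.79 in C3H/HeJ, 54.66 and 48.69 in FVB/NJ, and 25.51 and 29.7 in A/J. Both arrays of 129S6/SvEvTac and of DBA/2J thus lay above all 8 arrays of the other strains, and both A/J arrays lay below all others. Relative to the mean of the other strains, Cartpt was 5.57-fold higher in 129S6/SvEvTac (log2 difference 2.48, SE 0.26, adjusted p = 1.1e-08) and 5.04-fold higher in DBA/2J (2.33, adjusted p = 3.81e-08), and lower in A/J (-2.12, adjusted p = 4.02e-07). The hypothalamic marker sums of these arrays, 1476 and 1464 in 129S6/SvEvTac and 1266 and 1713 in DBA/2J, lay inside the range of the other pituitary arrays. Of these 6 markers, 2 were called higher and 2 lower in the pituitary gland than in the other regions. The part of hypothalamic tissue in the Cartpt levels was not tested. On untransformed signals the F test over strains still called Cartpt here (adjusted p = 0.045), but the single contrasts were not called, with differences of 276 signal units in 129S6/SvEvTac (adjusted p = 0.108), 274 in DBA/2J (adjusted p = 0.11) and -163 in A/J (adjusted p = 0.449).

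The smaller Cartpt differences of the pituitary gland were less firm. C3H/HeJ (-1.05, adjusted p = 0.00732) was no longer called without its replicate 2, the array with the high oligodendrocyte sum (-0.79, adjusted p = 0.266), and FVB/NJ (-1.03, adjusted p = 0.0089) lost its call without either of its arrays. The shares of all probe sets called in either direction in these pituitary contrasts were 8.84% in 129S6/SvEvTac, 6.84% in A/J, 9.26% in C3H/HeJ, 8.66% in DBA/2J, 7.55% in FVB/NJ and 15.8% in C57BL/6J. The strains were ordered differently in the other Cartpt-rich regions. In the pag, DBA/2J was lowest on average, at 661.25 and 934.75 (-0.91, adjusted p = 0.0374, with 3.73% of all probe sets called), FVB/NJ read 2004.21 and 2247.95, and the 129S6/SvEvTac arrays, at 1407.46 and 641.11, disagreed by more than most strains. In the hypothalamus, A/J was highest, at 1453.02 and 1454.23, and C57BL/6J lowest, at 1023.26 and 997.91, without a call.

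Npy, Npy5r and Sst also differed between strains in the pituitary gland, at low signal. Npy read 112.59 and 77.64 in C57BL/6J (0.73, adjusted p = 0.00327), against 34.02 and 42.22 in DBA/2J (-0.83, adjusted p = 0.00126), with the other strains between 43.46 and 101.27. Npy5r read 46.67 and 36.75 in C57BL/6J (0.93, adjusted p = 0.00127) and 8.84 and 16.48 in C3H/HeJ (-0.89, adjusted p = 0.00312). Sst read 41 and 27.05 in C3H/HeJ and -4.5 and 6.75 in A/J, so that these calls separate arrays near the floor from arrays at it. It was also called in DBA/2J, at 20.83 and 37.34 (0.56, adjusted p = 0.0285, lost without replicate 2), and in FVB/NJ, at 10.09 and 17.28 (-0.53, adjusted p = 0.0457, lost when any 1 of 34 arrays was left out and under 5 alternatives). Each of the single-strain calls for Npy and Npy5r was lost without replicate 1 of the strain named, and those for Sst likewise without replicate 1 of C3H/HeJ (0.57, adjusted p = 0.176) or A/J (-0.79, adjusted p = 0.0569), while the F test over strains stayed called for all 3 genes whichever single array was left out. With the floor at the 40th percentile that test called Npy but neither Sst nor Npy5r, and on untransformed signals none of the 3. The second probe set of Npy5r was at the floor on 10 of 12 pituitary arrays, and the F test over strains did not call it (adjusted p = 0.588). That test called the second probe set of Npy1r (adjusted p = 0.00178) and another of Lepr (adjusted p = 0.0303). The brightest probe sets of Npy1r and Lepr were not called (adjusted p = 0.325 and 0.159).

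Further strain differences lay in the bnst and the pag. By the brightest probe sets, the F test over strains called Npy1r alone in the bnst (adjusted p = 0.00319, with 19.3% of all probe sets called). Npy1r read 27.01 and 34.66 in DBA/2J and 71.04 and 92.44 in C57BL/6J, with every other bnst array between 44.61 and 73.09. DBA/2J had a log2 difference of -1.01 (adjusted p = 0.00112, 5.76% of all probe sets called) and C57BL/6J one of 0.67 (adjusted p = 0.0272, 9.50%), and the F test lost its call without DBA/2J replicate 1 (adjusted p = 0.0808). The F test did not call the second probe set of Npy1r in the bnst (adjusted p = 0.1), but it called that of Npy5r (adjusted p = 0.00953). The single contrasts of the bnst called 2 further genes. Lepr read 15.61 and 12.23 in DBA/2J and 18.9 or more on every other bnst array (-1.38, adjusted p = 0.0312), while its other probe sets were not called. Npy read 263.87, 207.7 and 276.1 in C3H/HeJ and 313.45 or more on every other bnst array (-0.51, adjusted p = 0.0485, 3.03% of all probe sets called), and without replicate 3 the difference was -0.59 (adjusted p = 0.0526).

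In the pag, 2 genes were called (13.3% of all probe sets), Cartpt (adjusted p = 0.00574) and Ghrh (adjusted p = 0.00384). Ghrh read 37.39 and 45.27 in 129S6/SvEvTac (1.05, adjusted p = 0.0298, 3.97% of all probe sets called) and 6.88 and -2.55 in C57BL/6J, at the floor. The Ghrh call of the F test was lost with the floor at the 40th percentile (adjusted p = 0.477) and on untransformed signals, while Cartpt stayed called under every alternative.

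**Figure D4:**
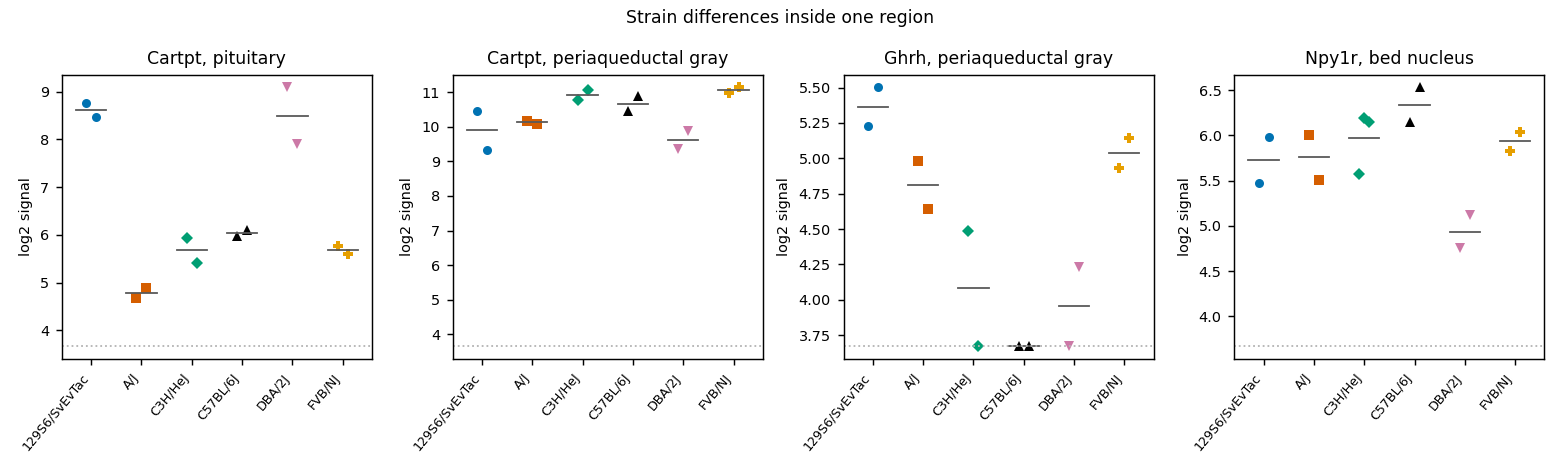
Log2 signal (floored at 12.78, the dotted line) by strain for Cartpt in the pituitary gland and in the pag, Ghrh in the pag and Npy1r in the bnst; each point is an array, horizontal bars are means, and the vertical axes differ between panels. In the pituitary gland, 129S6/SvEvTac and DBA/2J lie above and A/J below the other strains for Cartpt, and DBA/2J is lowest for Npy1r in the bnst.

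The regression on untransformed signals, with an F p under 0.01 for region or strain and the smaller one deciding, classed 7 of the 8 genes as region-specific (60.6% of all probe sets) and 0 as strain-specific (8.87%), with Lepr in neither class. By limma on the brightest probe sets, the same 7 genes were called by region and Cartpt alone by strain.

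Other gene groups of the hypothalamus were also higher there. Of 14 measured transcription factors of hypothalamic development, 12 were higher in the hypothalamus and 0 lower (17.0% of all probe sets each way), with a median log2 difference of 1.26 against -0.03 for all probe sets; Otp (3.08), a factor of neuroendocrine neurons, Isl1 (2.55) and Sim1 (2.41) had the largest values named here, and Rax (0.03) and Lhx6 (0.09) were not called. Of 24 measured peptides and receptors that act with the set, 14 were higher and 3 lower there (17.0% of all probe sets each way), with a median of 0.44. The higher ones included Avp (4.99), Pmch (4.82), Hcrt (3.95), Gal (2.70) and Pomc (0.82), and the lower ones were Sstr3 (-0.71) and the pituitary receptors Gnrhr (-1.05) and Ghrhr (-1.64). Agrp and Kiss1 were not analysed here. The Pomc value has a limit: the gene had a median of 521.8 in the hypothalamus and of 9350 in the pituitary gland, and pituitary hormone transcripts summed to between 142 and 7120 on the hypothalamus arrays, whose part in it was not tested.

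On the pituitary side, the receptors for the peptides were unevenly placed. Ghrhr, the receptor for Ghrh, read 1069 to 1554 in the pituitary gland and was at the floor on 47 of the 49 other arrays. Among the somatostatin receptors, Sstr5 (1.59) and Sstr3 (1.11) were higher in the pituitary gland and Sstr1 (-0.79), Sstr2 (-0.92) and Sstr4 (-1.73) lower. Trhr, through which Trh acts on the pituitary gland, had a median of 72.875 there and of 148.21 in the hypothalamus (pituitary difference -0.46, adjusted p = 3.39e-05). In all, 8 of the 24 partners were higher and 10 lower in the pituitary gland, where 40.6% and 25.4% of all probe sets were, with a median of 0.01 against 0.10 for all probe sets.

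Most leptin receptor signalling genes were higher in the pituitary gland. In the hypothalamus, 2 of 10 were higher (Stat5b at 0.72 and Stat3 at 0.15) and 2 lower (Ptpn1 at -0.57 and Stat5a at -0.23), close to the 17.0% of all probe sets called each way, with a median of -0.02. In the pituitary gland, 9 of 10 were higher, against 40.6% of all probe sets, with a median of 0.59 against 0.10. Socs3, an inhibitor of leptin signalling that other cytokines also induce, was the furthest, at 3.37, followed by Stat5a (2.09) and the phosphatase Ptpn1 (1.42), while Irs2 was not called (0.23, adjusted p = 0.0698). Of 7 measured genes of prohormone processing, 5 were higher in the pituitary gland (40.6% of all probe sets), with a median of 0.64, led by the convertase Pcsk1 (3.08) and the amidating enzyme Pam (1.18), and 3 were higher and 1 lower in the hypothalamus (17.0% each way). Pcsk2 and Bsx were not analysed here.

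The genes whose levels ran most like each member over the 30 group means were named by Pearson's r, as a description only, since the points share 5 regions. Trh ran with Fndc9 (0.97), Arhgap6 (0.96) and the factor Otp (0.94), and Ghrh with Pdzph1 (0.93), Nkx2-4 (0.91) and Gpr50 (0.90). Sst ran with Slc1a3, Ntrk2 and Cyrib (0.99 each), and Npy with Ppp1r9a (0.96), Rbm24 (0.96) and Fn1 (0.95). Cartpt ran with Rtl8c (0.97), Scn9a (0.95) and Susd2 (0.94). For the receptors, Npy1r ran with Gabra5, Pcnx and Hpcal4 (0.95 each) and Npy5r with Nlgn1, Ccdc177 and Slitrk2 (0.97 each), whereas no gene ran with Lepr above 0.88 (Cdx2). Within the set, the highest r was that of Npy with Npy1r, 0.92, and Cartpt with Npy had 0.08.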

How the data were processed

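Total RNA of each array was hybridised to an Affymetrix mouse genome 430 2.0 array. The authors processed the scanned images in TeraGenomics and deposited 1 signal per probe set, an intensity on a linear scale, of which 5.36% are below 0. The version and the scaling target are not given in the sources used here, and detection calls were not used. Strain, region and replicate number came from the labels. Replicates are independent animals or pools per the study's methods, mostly 2 arrays per group, which limits the precision. The labels describe snap freezing, the methods RNA Later for the smaller structures, so that preservation and region cannot be told apart.

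Of the probe sets, 64 controls were left out and 44065 of the 45037 others, above the floor of 12.78 on at least 1 array, were tested. Annotation named 1 gene for 34945 probe sets, several for 932 and none for 9160. A mean per group was fitted to log2 of the floored signals of all 61 arrays with limma 3.58.1 in R 4.3.3 (lmFit, eBayes with trend, 31 residual and a median of 3.44 prior degrees of freedom). Contrasts weighted strains and regions equally. P-values were Benjamini-Hochberg adjusted over all probe sets within each comparison, and the procedure was tested on simulated data. The regression of the study was refitted in R to untransformed signals, without its filter on detection calls and without its permutation tests, so that the shares classed need not be those of the study. Scripts applied no further scaling.

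The members and gene lists were chosen with earlier results of these data known. Values are given for each member by its brightest probe set on average. Those of the other probe sets of a member are given in part, so that silence does not mean that they agree. From the lists, the members with the largest differences and those that go against the rest are named. Likeness to a member is Pearson's r over the 30 group means, and the 3 highest were named (for Lepr the highest). Alternatives tried were the floor, the filter, the scaling between arrays, untransformed signals, the variance prior, the mean over probe sets, the replicate number as a block, 60 arrays, each array left out, and, chosen after seeing the data, brain regions alone as reference.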

Additional observations from a re-analysis of the deposited data

Results flagged for a closer look

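Strain differences depended on the region for 5 of the 8 genes, by limma's interaction test with Benjamini-Hochberg adjustment over all probe sets, in which 11.3% of all probe sets were called. The adjusted p was 5.2e-08 for Cartpt, whose strains differed most in the pituitary gland. It was 0.0108 for Sst and 0.0121 for Npy, both with called strain differences in the pituitary gland, at low signal. It was 0.0379 for Ghrh, with called differences in the pag, and 0.0445 for Npy1r, with called differences in the bnst. No single array removed the Cartpt call, 1 array removed that of Sst and 1 that of Npy, and the calls for Ghrh and Npy1r were lost without any of 20 and 39 arrays.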

How the results depend on the processing

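Counts are of the 8 genes. The 7 genes called by region, the 7 lower and 0 higher in the pituitary gland, the 4 higher in the hippocampus, and the 7 region-specific and 0 strain-specific genes of the study's regression kept their counts under every alternative run, and the hypothalamus kept 6 or 7 higher genes and the hippocampus 3 or 4 lower ones. Region called 31593 of the 44065 probe sets tested in the main fit. Where the highest group mean was at least 100, it called 22161 of 23080. The kept count of 7 does not set these genes apart there. Strain counts were less stable. With the floor at the 10th percentile, strain called 3 genes, the interaction 3 and strain within the bnst 0. With the floor at the 40th percentile, 1 gene was lower in the bnst, A/J and DBA/2J called 0, and strain called 2 genes within the bnst, 1 within the hypothalamus and 2 within the pituitary gland. Without a filter, 129S6/SvEvTac called 2 genes, A/J 1 and C3H/HeJ 0. With only probe sets of a highest group mean of at least 100, strain called 2, 129S6/SvEvTac 2, C57BL/6J 1, DBA/2J 0 and strain within the bnst 2. With arrays scaled to one median, strain called 2, the interaction 3, A/J 1, C3H/HeJ 0 and DBA/2J 2, and with quantile normalization strain called 2 and the interaction 3; no scaling moved the median of all probe sets in a contrast by more than 0.0901. Without the variance trend, 129S6/SvEvTac called 2, A/J 1 and C3H/HeJ 0. On 60 arrays, without C3H/HeJ bnst replicate 3, strain called 2 genes, also 2 within the bnst. With the mean over all probe sets of a gene, strain called 2, C57BL/6J 1 and DBA/2J 0. The calls among all probe sets also moved with the setting. The interaction called 4990 of 44065 in the main fit. It called 4232 of 44870 with the floor at the 10th percentile and 6933 of 38772 at the 40th. Scaling to one median gave 3532 of 43977 and quantile normalization 5010 of 43952. For strains and single regions, the shares under each alternative are not given here.

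On untransformed signals, which give bright groups more weight, strain called 2 genes, A/J 0 and DBA/2J 0, and strain within the bnst called 2, within the hippocampus 2, within the hypothalamus 2, within the pag 1 and within the pituitary gland 1, the bnst had 2 higher and 3 lower genes and the pag 1 higher and 5 lower. The signs of 4 differences called on at least 1 of the scales turned there, in signal units: Npy in the bnst (-127), Cartpt in the bnst (-224), Sst in the pag (-175) and Cartpt in 129S6/SvEvTac (-25.2), and so did Npy1r (-7.73) and Npy5r (-6.61) in the bnst, called on neither. Against the other 3 brain regions, the bnst had 2 higher and 4 lower genes and the pag 1 higher and 5 lower, and 5 signs turned: Npy (-0.56), Npy1r (-0.43) and Npy5r (-0.40) in the bnst, and Sst (-0.76) and Npy5r (-0.20) in the pag. The cause of these changes was not tested beyond the change of scale or reference that makes them.

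Leaving out 1 array at a time gave 0 to 4 genes by strain, 3 to 6 by interaction, 1 to 2 in 129S6/SvEvTac, 0 to 2 in A/J, 0 to 1 in C3H/HeJ, 0 to 1 in C57BL/6J, 1 to 2 in DBA/2J, 0 to 2 by strain within the bnst, 0 to 1 within the hippocampus and 2 to 3 within the pag, and 3 to 4 higher in the bnst and 3 to 4 lower in the pag. Over the single-gene results and all alternatives, 4868 kept their call or lack of it, 249 lost and 10 gained a call, and 9 with a call in at least 1 of the fits turned sign. Of the 4868, 18 without a call in either fit also turned sign.

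Replicate numbers did not visibly pair the arrays. Over 60 pairs of regions of one strain, the correlation of deviations between arrays numbered replicate 1 ran from -0.33 to 0.41. Its median was 0.00415, and 13 exceeded 0.1. Over 300 pairs that differed in both strain and region it ran from -0.42 to 0.36, and 57 exceeded 0.1. This check cannot exclude mice shared between regions through pools or under other numbers. With the replicate number as a fixed block, strain called 2 genes and strain within the bnst 2. With strain and number as a random block (consensus correlation 0.00603), C3H/HeJ called 0. The other counts stayed within 1.5 times under either block. Detection was limited by 2 arrays per group, by signals near the floor for Ghrh, Lepr and the pituitary values, and by the choice of 1 probe set for Npy1r, Npy5r and Lepr. Whether strain variants lie under the probes was not tested.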
